A study of Mus musculus with 2 samples.

Results

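Paneth defensins and epithelial antimicrobial genes were followed here through the Neurog3-derived cells of the mouse small intestine. The group holds 33 of the 32285 genes in the files: 17 alpha-defensin genes and 16 further genes of Paneth cell granules and of the epithelial antimicrobial barrier. Members were taken by their listed symbols, and all 33 symbols were found among the gene names. Paneth cells sit at the base of the intestinal crypts next to the stem cells and release granules into the crypt. The granules carry alpha-defensins, short cationic peptides that damage bacterial membranes and that in the mouse are cut into their active form by the metalloprotease Mmp7, beside lysozyme, angiogenin 4 and lectins that bind bacterial sugars. Goblet cells and enterocytes add mucus-layer proteins and transport secreted immunoglobulin into the lumen.

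Single-cell RNA-Seq was carried out on Tomato-positive cells sorted from the small intestine, 1 library from WT mice and 1 labelled NFKO. WT mice were Neurog3Cre; Rosa26tdtomato, in which the Neurog3 promoter drives Cre and the Cre switches on the reporter, and the mice labelled NFKO were Neurog3Cre-FoxO1 f/f; Rosa26tdtomato. Both groups thus carry the same Cre and the same reporter, and the sort should hold cells that turned on Neurog3 themselves or descend from cells that did. Each library pooled the whole small intestine of 4 to 5 mice aged 4 to 6 weeks, with the pancreas removed, so that single mice cannot be told apart.

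After filtering, 3003 WT cells and 5292 cells labelled NFKO were kept, with 78424392 and 111522270 unique molecular identifiers (UMIs), each of which marks 1 captured transcript, and medians of 16883 and 17035 UMIs per cell. Neither group has a second library, so there is no replicate and no test. Intervals are at 95% and cover counting error only, and every ratio divides the value in the library labelled NFKO, from here on the NFKO-labelled library, by that in WT. Levels are UMIs of a gene per 1000000 UMIs of a cell class (CPM). The kit counts the 3′ end of each transcript, so that a level does not scale with transcript length. Foxo1 had 11.5 CPM in WT and 12.4 CPM in the second library (ratio 1.07, 0.987 to 1.17), so that no lower level was seen there. The paper reports a significant reduction of FoxO1 expression in Tomato-positive cells sorted from NFKO mice. Whether counts of the 3′ end would show the deletion was not tested. The genotype could therefore not be checked from these counts, and the second library is called by its label. By Xist and Y-linked UMIs, WT held 2424 male-typed and 6 female-typed cells and the NFKO-labelled library 357 and 4357, so that sex and label cannot be told apart except in the male-typed cells. The libraries shared 6 cell barcodes, of which 4 were kept in each.

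The cells were clustered without the 33 members, the other alpha-defensin genes, Foxo1 and sex-linked genes, and clusters were then named from marker lists. The Paneth-like class was 1 cluster of 185 WT cells and 186 NFKO-labelled cells, 6.16% and 3.51% of the kept cells, with medians of 82420 and 58681 UMIs. It passed 11 of 14 Paneth markers, 8 of which are members, so that high Lyz1, Mmp7, Ang4, Itln1, Mptx2, Defa17, Defa22 and Defa24 in these cells is not a finding. The 6 Paneth markers that are no members summed to 3683 CPM in WT and 5202 CPM in the NFKO-labelled library, and to 5489 and 4890 CPM in tuft-like cells, so that their sum does not set the Paneth-like cells apart from those. The 9 goblet markers summed to 21970 and 26136 CPM there, against 147373 and 228402 CPM in goblet-like cells. Of 8 lymphocyte markers, 7 were at 0 in the Paneth-like cells of each library, and so were 5 of 6 neutrophil markers. The goblet-like class held 840 and 1567 cells and was made of 3 clusters that drew unequally on the libraries: 158 and 745 cells in cluster 0, 89 and 800 in cluster 1, and 593 and 22 in cluster 2, whose leading genes include the growth factor gene Areg and the heat shock genes Hspa1a and Hspa1b. A further cluster, number 7, with 149 and 276 cells, passed 4 of 14 Paneth markers and was led by Rnase1, St3gal1, Ccl9 and Retnlb. It is given by its number.

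The alpha-defensin genes form 1 array. All 17 lay on chromosome 8, between 21025545 and 21735471 on GRCm38, a span of 710 kb. They are near copies of each other. When the last 300 bases of each annotated transcript were cut into words of 60 bases, each of the 17 shared words with another gene, from 5.39% of its words for AY761184 to 100% for Defa20, Defa23, Defa34 and Defa36, with a median of 58.9%. Defa24 shared 17.8%. The other copy was Defa31 for Defa23 and Defa37 for Defa36, which are not members. Reads from such ends can be assigned to either copy or dropped, and levels of single alpha-defensin genes are therefore uncertain, most of all for those 4. Of the 16 other members, 3 shared words: Lyz1 and Lyz2 with each other (18.7%) and Ang4 with Ang5 (8.30%). The mucosal pentraxin genes Mptx1 and Mptx2 shared none.

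The promoters of 4 members are shown, because Defa23 and Mptx2 were the members with the lowest ratios in Paneth-like cells and Mptx1 and Defa20 were among those with the highest. The sequences are RefSeq's, the 250 bases before the annotated start on GRCm38.p6, written 5′ to 3′ on the strand of the gene. Capitals mark TATAAA, the TATA box, read on the strand of the gene, and CTTTGA or its reverse complement TCAAAG, the core of the site bound by TCF and LEF factors, which carry Wnt signals and are known regulators of Paneth genes. Defa20 lies at chr8:21509008-21509257 on the plus strand, Defa23 at chr8:21054790-21055039 on the plus strand, Mptx1 at chr1:174330268-174330517 on the plus strand and Mptx2 at chr1:173277757-173278006 on the minus strand.
Defa20: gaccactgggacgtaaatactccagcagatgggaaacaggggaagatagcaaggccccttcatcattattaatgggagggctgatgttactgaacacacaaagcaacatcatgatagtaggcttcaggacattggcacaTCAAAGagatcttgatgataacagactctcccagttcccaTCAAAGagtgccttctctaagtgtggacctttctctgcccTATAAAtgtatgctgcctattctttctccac
Defa23: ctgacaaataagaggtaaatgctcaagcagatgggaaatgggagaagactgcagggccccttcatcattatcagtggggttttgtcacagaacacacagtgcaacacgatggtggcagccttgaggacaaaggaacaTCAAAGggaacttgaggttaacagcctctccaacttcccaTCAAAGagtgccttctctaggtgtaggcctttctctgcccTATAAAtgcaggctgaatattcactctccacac
Mptx1: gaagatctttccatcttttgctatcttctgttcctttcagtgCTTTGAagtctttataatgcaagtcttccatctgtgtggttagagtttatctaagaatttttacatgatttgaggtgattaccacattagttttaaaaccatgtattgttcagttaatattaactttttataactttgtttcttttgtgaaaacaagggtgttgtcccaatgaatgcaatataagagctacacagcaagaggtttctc
Mptx2: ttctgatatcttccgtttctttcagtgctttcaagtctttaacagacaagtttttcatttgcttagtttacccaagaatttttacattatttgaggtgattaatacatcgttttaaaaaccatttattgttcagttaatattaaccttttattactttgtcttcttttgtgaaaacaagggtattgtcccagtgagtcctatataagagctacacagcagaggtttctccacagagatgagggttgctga

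Both alpha-defensin promoters held 1 TATAAA, starting 31 bases before the start in Defa20 and 33 bases before it in Defa23, and 2 copies of TCAAAG. Promoters were found for 21 of the 33 members. Of these, 6 were alpha-defensin genes, Defa20, Defa21, Defa22, Defa23, Defa30 and Defa36, and all 6 held TATAAA and TCAAAG. Of 32851 mouse promoters of this length, 7.59% held TATAAA on the strand of the gene and 13.8% held CTTTGA on either strand. TATAAA on the strand of the gene and CTTTGA on either strand were found together in 1.26%. The 6 windows are copies too: Defa21 and Defa22 shared 100% of their 12-base words, and the least similar of the 6 shared 24.7% of its words with its nearest relative. Mptx1 held 1 CTTTGA, 208 bases before the start, and Mptx2 held neither motif. No promoter was matched for Defa3, Defa5, Defa17, Defa24, Defa26, Defa29, Defa34, AY761184, Gm14851, Gm15292, Gm15293 and Dmbt1.

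Alpha-defensin transcripts made up most of what was counted in Paneth-like cells. Together the 17 genes took 63.9% of the UMIs of WT Paneth-like cells and 61.7% of those labelled NFKO, a ratio of 0.966 (0.965 to 0.967). The 16 other members summed to 115264 and 103012 CPM (0.894, 0.892 to 0.896), and with them the shares were 75.5% and 72.0%. In male-typed Paneth-like cells, 150 in WT and 4 in the NFKO-labelled library, the ratio of the 16 was 1.25. In single Paneth-like cells the alpha-defensin share had a median of 59.3% in WT, with quartiles of 36.2% and 72.7%, and a median of 58.5% in the NFKO-labelled library, with quartiles of 39.9% and 69.3%. The highest cells reached 82.5% and 81.0%. The spread between cells of 1 library was thus wider than the distance between the medians of the libraries.

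Over all kept cells the alpha-defensin share was 15.8% in WT and 7.99% in the NFKO-labelled library, a ratio of 0.506. Paneth-like cells held 93.9% of all alpha-defensin UMIs in WT and 89.3% in the NFKO-labelled library, and their share of cells was lower in the latter. In a sum over all cells, fewer Paneth-like cells and less alpha-defensin RNA per cell cannot be told apart. Over all kept cells 13 of 33 members were at least 2-fold lower in the NFKO-labelled library, where 2.75% of all 16040 genes with at least 20 UMIs were, and 2 were at least 2-fold higher, where 8.69% of all genes were. In Paneth-like cells 2 of 31 members were at least 2-fold lower, against 2.39% of 10578 genes, and 1 was at least 2-fold higher, against 6.01%. Most members that were lower over all cells were therefore within 2-fold once Paneth-like cells were set against Paneth-like cells.

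**Figure D1:**
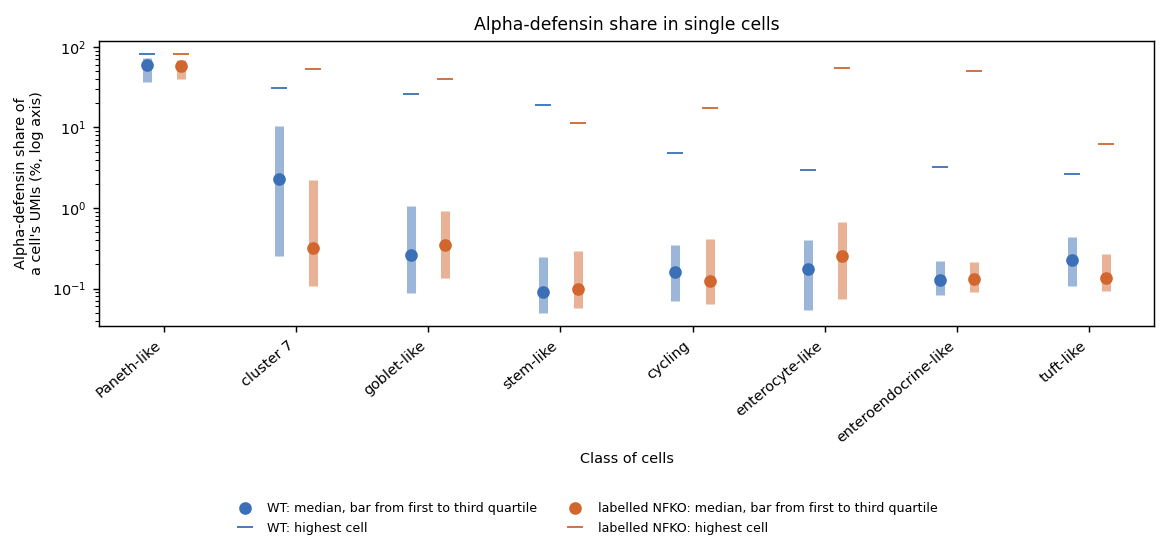
Share of a cell's UMIs that came from the 17 alpha-defensin genes (percent, log axis) by class, with the median as a point, a bar from the first to the third quartile and a dash for the highest cell, WT in blue and the NFKO-labelled library in orange. Paneth-like medians are 59.3% and 58.5%, cluster 7 has medians of 2.29% and 0.318%, and the goblet-like medians are 0.263% and 0.350%.

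Outside the Paneth-like class, cluster 7 had the highest alpha-defensin share, 7.09% of UMIs in WT and 3.81% in the NFKO-labelled library (ratio 0.537). Its cells were uneven, with medians of 2.29% and 0.318%, and 39 WT cells and 29 NFKO-labelled cells were above 10%. Goblet-like cells had 15789 CPM and 11119 CPM of alpha-defensin transcripts. Stem-like cells had 8113 and 7628 CPM and cycling cells 4474 and 5362 CPM. Enteroendocrine-like cells, which make hormones and are not a known source of defensins, had 1652 and 2009 CPM at median depths of 12441 and 15385 UMIs. Tuft-like cells, the chemosensory cells of the epithelium, had 2226 and 2427 CPM at 6153 and 16721 UMIs. The levels in tuft-like and enteroendocrine-like cells are used below as the background of the libraries. A few cells raise this background: without the highest 3 cells of each library the tuft-like sums were 1905 and 1784 CPM. The highest enteroendocrine-like cell of the NFKO-labelled library had an alpha-defensin share of 49.9%.

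The enterocyte-like class held unlike cells in the 2 libraries. The 8 enterocyte markers summed to 3630 CPM in WT and 27812 CPM in the NFKO-labelled library, and the 9 goblet markers to 27406 and 13806 CPM. Ratios in this class therefore do not set like cells against like. In enterocyte-like cells the alpha-defensin sum was 1820 CPM in WT and 14455 CPM in the NFKO-labelled library, and all 17 genes were at least 2-fold higher. The highest 3 of the 357 NFKO-labelled cells held 87.1% of these UMIs. Without the highest 3 cells of each library the sums were 1260 and 1938 CPM, so that the difference rested mostly on those cells. In all, 22 of 30 members were at least 2-fold higher in enterocyte-like cells, where 6.23% of 10650 genes were.

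**Figure D2:**
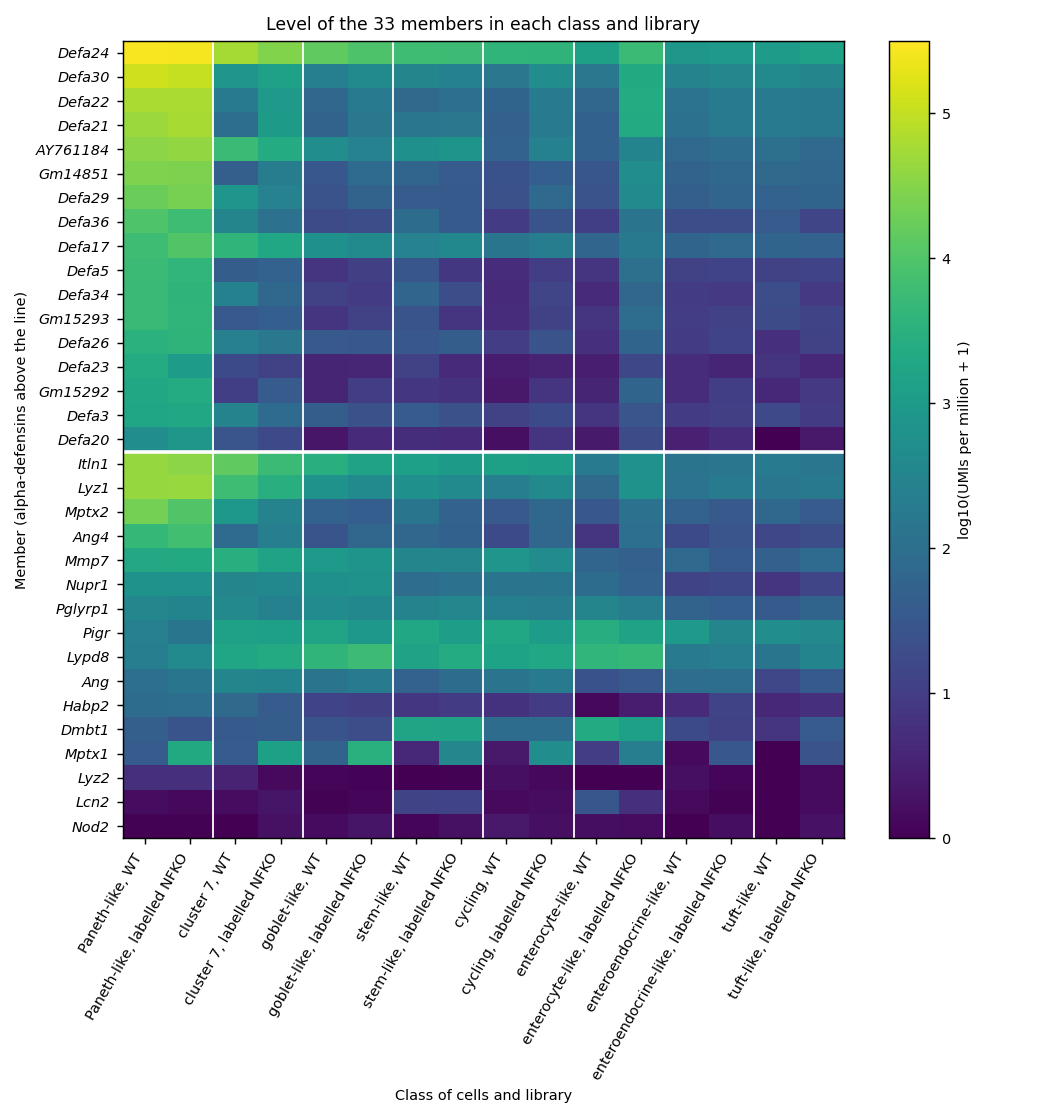
Level of each of the 33 members (log10 of CPM plus 1, colour) in 8 classes of cells, WT beside the NFKO-labelled library, alpha-defensins above the white line. The Paneth-like columns are brightest for the alpha-defensins, Defa24 is the brightest alpha-defensin row in every column, and Mptx1 is brighter in each column labelled NFKO than in its WT neighbour.

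Defa24 (ENSMUSG00000064213, chromosome 8, 21734494 to 21735471) was the leading alpha-defensin of Paneth-like cells, with 278981 CPM in WT and 260299 CPM in the NFKO-labelled library (ratio 0.933), so that 1 gene gave 43.6% and 42.2% of all alpha-defensin UMIs. Defa30 followed with 127362 and 106129 CPM (0.833). Defa22 had 61844 and 63125 CPM (1.02), and its near copy Defa21 had 48244 and 60051 CPM (1.24). The order of these 4 genes was the same in both libraries. AY761184 had 34191 and 39786 CPM (1.16), Gm14851 27287 and 26074 CPM (0.956) and Defa29 18814 and 23684 CPM (1.26). The ratios of these 7 most abundant genes thus ran from 0.833 to 1.26.

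The less abundant alpha-defensins of Paneth-like cells differed more between the libraries. Defa17 had 6320 CPM in WT and 10217 CPM in the NFKO-labelled library (1.62), and Defa20 had 497 and 830 CPM (1.67, 1.63 to 1.72). Defa23 (ENSMUSG00000074446, chromosome 8, 21055047 to 21056016) had 2369 and 1047 CPM (0.442, 0.434 to 0.451), the lowest ratio of the 17 and the one alpha-defensin past 2-fold. Defa36 had 9865 and 6197 CPM (0.628), Defa34 5448 and 3758 CPM (0.690), Gm15293 5426 and 3876 CPM (0.714) and Defa5 5564 and 4238 CPM (0.762). These 5 genes with lower levels include Defa23, Defa34 and Defa36, which share all of the words at their ends with another copy. Gm15292 had 1998 and 2476 CPM (1.24), Defa26 3251 and 3729 CPM (1.15) and Defa3 1799 and 1960 CPM (1.09). Over the 17 genes the median log2 ratio was 0.03, where the median of all genes tested in these cells was 0.21.

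Because alpha-defensins take most of the UMIs of these cells, the scaling bears on each ratio. With the members taken out of the total the ratio of the alpha-defensin sum was 0.848, and with median-of-ratios size factors it was 0.838. With size factors 4 members in place of 2 were at least 2-fold lower. Such a scaling shifts the ratio of every gene alike, and the share of all genes past 2-fold was not counted under it. The libraries kept their order for the sum under each of the scalings run.

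Among the other granule proteins of Paneth-like cells, intelectin 1 and lysozyme were the most abundant and differed little between the libraries. Itln1, a lectin that binds microbial sugars, had 42168 CPM in WT and 35855 CPM in the NFKO-labelled library (0.850). Lyz1, the lysozyme of Paneth cells, which cuts bacterial cell walls, had 41677 and 44112 CPM (1.06). Ang4, a ribonuclease of the angiogenin family with antibacterial activity, had 4586 and 6833 CPM (1.49). Mmp7, the protease that activates alpha-defensins, had 2086 and 2190 CPM (1.05). Lyz2, the lysozyme of myeloid cells, had 87 and 57 UMIs (0.924, 0.649 to 1.31), near 4.79 and 4.42 CPM, and part of its 3′ end is shared with Lyz1. Its one high value was 612 CPM in the 40 WT cells of cluster 13, in which lymphocyte markers were found.

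The pentraxins stood apart. Both genes lie on chromosome 1, Mptx2 (ENSMUSG00000079180) from 173274382 to 173277777 on the minus strand and Mptx1 (ENSMUSG00000026531) on the plus strand between 174330518 and 174332873. Mptx2, a mucosal pentraxin of Paneth cells, had 22972 CPM in WT Paneth-like cells and 10109 CPM in those labelled NFKO (0.440, 0.437 to 0.443). In male-typed Paneth-like cells, 150 and 4, its ratio was 0.996 (0.972 to 1.02), where that of Defa23 was 0.212 and that of Mptx1 19.1. The median of Mptx2 over single cells was 18220 CPM in WT and 2254 CPM in the NFKO-labelled library, with upper quartiles of 28523 and 16012 CPM. After each cell was thinned to 2000 UMIs, 83.1% (76.8 to 88.2) of 183 WT cells and 67.0% (59.6 to 73.9) of 179 NFKO-labelled cells had an Mptx2 UMI. In tuft-like cells these shares were 12.5% and 8.76%. The lower sum thus came with fewer positive cells, and with 16 NFKO-labelled cells that held at least 50% of the UMIs against 34 cells in WT.

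Mptx1, the other mucosal pentraxin, went the other way. In Paneth-like cells it had 692 UMIs in WT, 38.1 CPM, and 28166 UMIs in the NFKO-labelled library, 2185 CPM, a ratio of 57.4 (53.2 to 62.0), the highest of all members. In WT 119 of 185 Paneth-like cells had no Mptx1 UMI and in the NFKO-labelled library 31 of 186, with medians of 0 and 124 CPM and upper quartiles of 15.9 and 1124 CPM. The 3 highest cells held 40.9% and 33.4% of the UMIs. At 2000 UMIs per cell, 6.01% (3.04 to 10.5) and 43.0% (35.7 to 50.6) of Paneth-like cells had an Mptx1 UMI, against 0% (0 to 4.51) of 80 tuft-like cells in WT and 7.30% of 137 in the NFKO-labelled library. The tuft-like level in the NFKO-labelled library was 24.8 CPM.

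Mptx1 was higher in the NFKO-labelled library in each class examined. Goblet-like cells had 56.1 and 3085 CPM (55.0, 51.8 to 58.5), the highest level of any class, cluster 7 had 38.1 and 1340 CPM, cycling cells 1.42 and 496 CPM, stem-like cells 3.11 and 346 CPM and enterocyte-like cells 8.83 and 225 CPM. Enteroendocrine-like cells had 0.366 and 30.3 CPM. In the 3 goblet-like clusters the ratios were 106, 110 and 45.0. In male-typed goblet-like cells, 703 in WT and 110 in the NFKO-labelled library, the levels were 53.9 and 3528 CPM (65.4), and the female-typed goblet-like NFKO-labelled cells had 3060 CPM. In Paneth-like cells 4 male-typed NFKO-labelled cells are too few to separate sex from label. Zg16, a lectin of goblet cells that binds bacteria and was on the list of further antimicrobial genes, moved in the same direction in both classes, from 38.3 to 926 CPM in Paneth-like cells and from 24846 to 79707 CPM in goblet-like cells (24.2 and 3.21). The part of goblet transcripts in the Mptx1 level of Paneth-like cells was not tested.

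**Figure D3:**
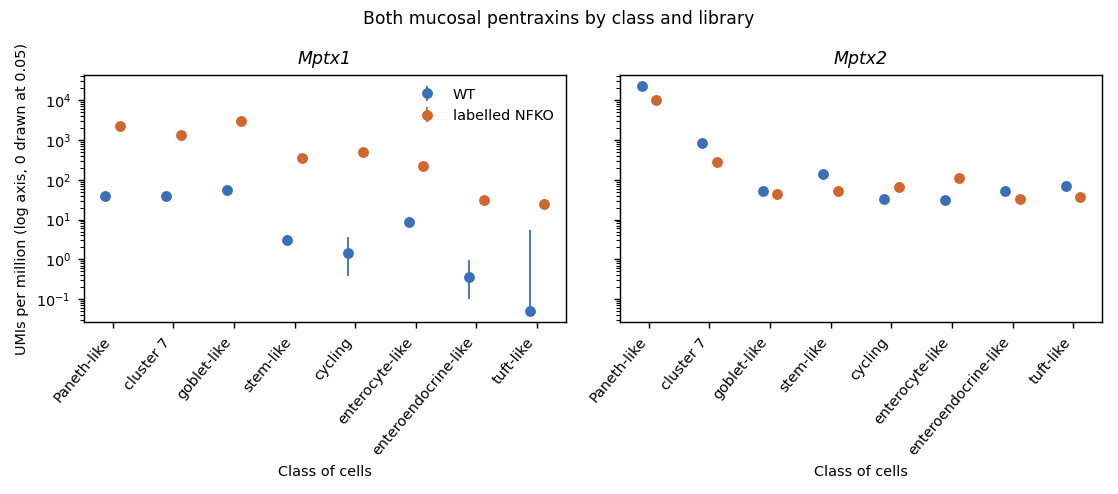
Levels of Mptx1 and Mptx2 (CPM, log axis, a level of 0 drawn at the bottom) in 8 classes of cells, with 95% counting intervals, WT in blue and the NFKO-labelled library in orange. Mptx1 is higher in orange in all 8 classes, with 38.1 and 2185 CPM in Paneth-like cells, while Mptx2 is at 22972 and 10109 CPM in Paneth-like cells and at most 136 CPM in the 6 classes other than these and cluster 7.

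The remaining members were low in Paneth-like cells. Nupr1, a small stress-response chromatin protein, had 674 and 601 CPM (0.892), and Pglyrp1, which binds bacterial peptidoglycan, had 350 and 298 CPM (0.854). Pigr, the receptor that carries polymeric immunoglobulin across the epithelium, had 247 and 139 CPM (0.563, 0.533 to 0.595), but a ratio of 1.20 (1.17 to 1.24) with cluster 7 counted as Paneth-like, an alternative chosen after seeing the data. Lypd8, which keeps flagellated bacteria off the epithelium, had 227 and 430 CPM (1.90, 1.82 to 1.97). Lypd8 and Pigr were higher in goblet-like cells and enterocyte-like cells than here in both libraries. Ang, a further angiogenin, had 102 and 133 CPM (1.31), Habp2, a secreted serine protease, 88.9 and 96.2 CPM (1.08) and Dmbt1, a scavenger receptor-like mucosal protein, 44.5 and 25.3 CPM (0.568). Nod2, the sensor of bacterial muramyl dipeptide, had 1 UMI in each library, and Lcn2, which binds bacterial siderophores, had 10 and 4 UMIs. Both were below the minimum of 20 UMIs for a ratio.

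**Figure D4:**
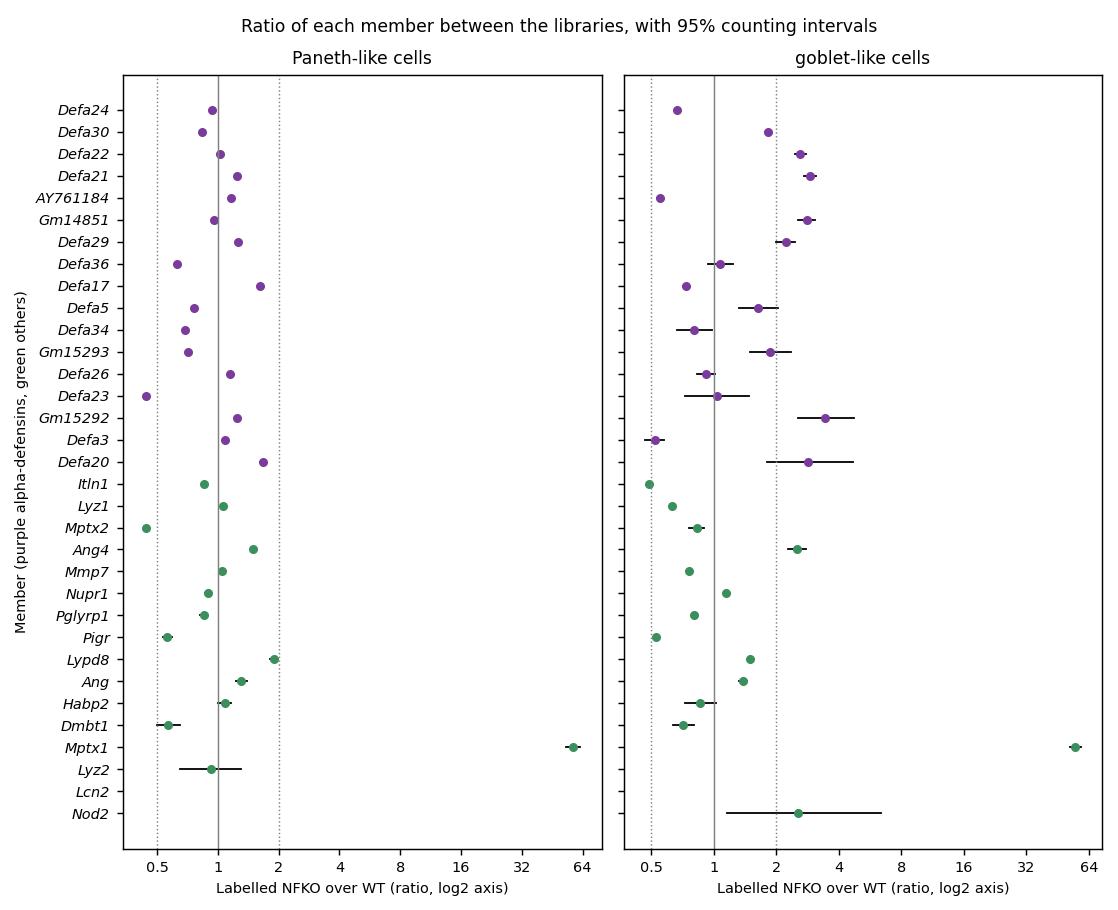
Ratio of each member, library labelled NFKO over WT (log2 axis), in Paneth-like and goblet-like cells, with 95% counting intervals, alpha-defensins in purple and other members in green, and dotted lines at 2-fold. In Paneth-like cells Mptx1 lies at 57.4 and Mptx2 and Defa23 at 0.440 and 0.442, and in goblet-like cells 9 members lie above the upper line and Itln1, at 0.490, below the lower one.

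A finer clustering, at resolution 1.6, split Paneth-like cells and cluster 7 in another way, and the differences of Mptx2 and Defa23 lay in 1 of the resulting clusters. The first, of 163 WT cells and 148 NFKO-labelled cells, took 61 and 66 cells from the Paneth-like class and 102 and 81 from cluster 7, and alpha-defensins made up 24.7% and 33.5% of its UMIs. The second, of 125 and 121 cells, came almost entirely from the Paneth-like class and had alpha-defensin shares of 68.3% and 67.5%. In the second cluster Mptx2 had 24691 and 8235 CPM (0.334) and Defa23 2650 and 1160 CPM (0.438). In the first Mptx2 had 7348 and 9171 CPM (1.25) and Defa23 441 and 484 CPM (1.10). Mmp7 was more abundant in the first cluster, with 4139 and 3435 CPM, than in the second, with 1621 and 1598 CPM. Defa21 and Defa30 had ratios of 2.81 and 2.11 in the first.

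Goblet-like cells had alpha-defensin transcripts of another make-up than Paneth-like cells. Defa24 made up 89.9% of the alpha-defensin UMIs of goblet-like cells in WT and 84.6% in the NFKO-labelled library, against 43.6% and 42.2% in Paneth-like cells. Defa30, the next gene in Paneth-like cells with 19.9% and 17.2%, made up 1.51% and 3.91% in goblet-like cells. Cluster 7 was like the goblet-like cells in this, with 82.3% and 77.1% for Defa24 and 1.06% and 3.71% for Defa30. In stem-like cells Defa24 made up 78.1% and 76.4%. Enteroendocrine-like cells, with 49.5% and 46.0% for Defa24 and 17.8% and 17.4% for Defa30, were close to the Paneth-like make-up, and tuft-like cells had 47.2% and 59.1% for Defa24.

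**Figure D5:**
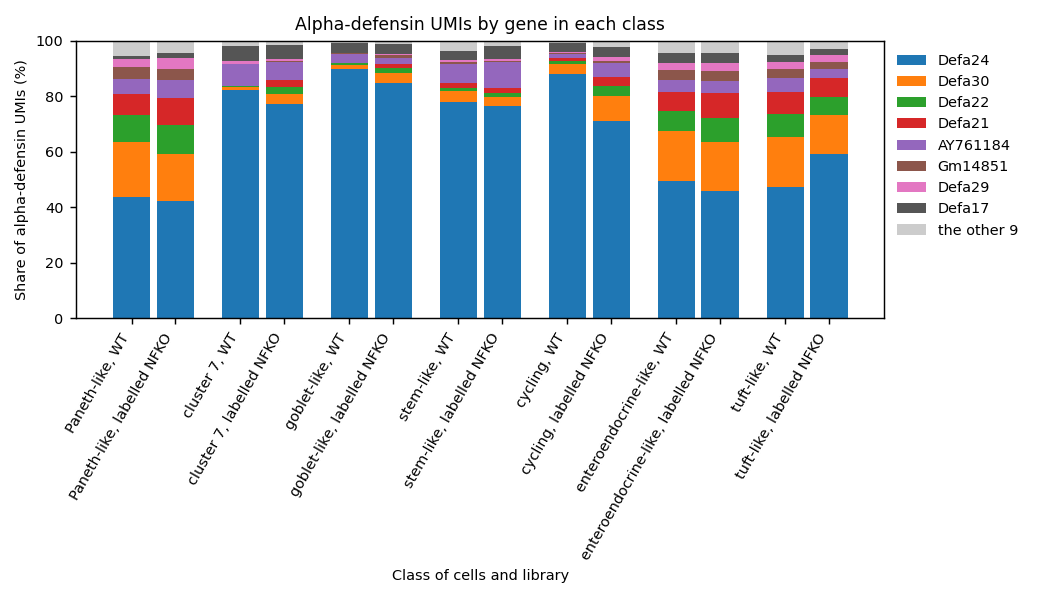
Share of the alpha-defensin UMIs given by each gene (percent, stacked bars), for 7 classes of cells and both libraries, with the 9 least abundant genes combined. Defa24 takes 43.6% and 42.2% in Paneth-like cells, 89.9% and 84.6% in goblet-like cells, and 49.5% and 46.0% in enteroendocrine-like cells.

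For each member, the UMIs in a class were divided by those it would have there if it stood to the other alpha-defensins as it did in Paneth-like cells of the same library. By this measure 15 of 16 alpha-defensins in WT and 16 of 17 in the NFKO-labelled library lay within 2-fold of the Paneth-like make-up in enteroendocrine-like cells, and 8 of 8 and 12 of 14 did in tuft-like cells. In goblet-like cells 2 and 1 of 17 did. These counts depend on Defa24, which is among the other alpha-defensins for every member but itself. Defa24 made up 89.9% and 84.6% of the goblet-like alpha-defensin UMIs, so that its share lowers the values of the other members. The measure was not computed with Defa24 left out. Defa24 lay 11.5-fold and 7.54-fold above the Paneth-like make-up in goblet-like cells and Defa17 3.75-fold and 2.32-fold. Defa30 lay at 0.0616 and 0.196 of it. Mmp7 lay 17.5-fold and 17.4-fold above it and Itln1 2.87-fold and 2.27-fold, and Lyz1 was below it at 0.627 and 0.512. In goblet-like cells Defa24, Defa17, Mmp7 and Itln1 were thus more abundant, relative to the other alpha-defensins, than in Paneth-like cells of both libraries.

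Shares of cells with a UMI separated the classes only in part for Defa24. At 2000 UMIs per cell, 82.5% of goblet-like cells in WT and 85.8% in the NFKO-labelled library had a Defa24 UMI, but 81.2% and 73.0% of tuft-like cells and 75.4% and 74.2% of enteroendocrine-like cells had one too. For Lyz1 the shares were 29.1% and 35.7% in goblet-like cells and 30% and 35% in tuft-like cells. In WT the Defa24 share of goblet-like cells was thus close to the tuft-like share, and in the NFKO-labelled library it was above both background shares. The Lyz1 shares were at the tuft-like level. None of these shares is read as expression. Levels separated the classes further, since Defa24 in goblet-like cells was 13.5-fold and 6.55-fold its level in tuft-like cells.

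Between the libraries, the alpha-defensin sum of goblet-like cells was lower in the NFKO-labelled library, 15789 CPM in WT and 11119 CPM (0.704, 0.701 to 0.708). Its direction depended on the mix of clusters: the ratio was 0.885 in cluster 0, 1.33 in cluster 1 and 1.62 in cluster 2, of which the last holds 22 NFKO-labelled cells. The median goblet-like cell had an alpha-defensin share of 0.263% in WT and 0.350% in the NFKO-labelled library, in the opposite order to the sums. A few cells weigh on the sums, with 14 cells in each library above 10%, and without these the ratio was 0.810.

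Of 31 members with at least 20 UMIs in goblet-like cells, 9 were at least 2-fold higher in the NFKO-labelled library, where 5.64% of 12270 genes were, and 1 was at least 2-fold lower, where 2.71% were. The 9 were Mptx1, Gm15292 (3.44, 2.55 to 4.73), Defa21 (2.92), Defa20 (2.85), Gm14851 (2.80), Defa22 (2.62), Nod2 (2.55, 1.15 to 6.39), Ang4 (2.52) and Defa29 (2.23). The alpha-defensins among them were scarce in goblet-like cells: Defa22 had 65.5 and 172 CPM, Defa21 55.0 and 161 CPM, Gm14851 30.1 and 84.3 CPM, Defa29 24.3 and 54.1 CPM, Gm15292 2.67 and 9.18 CPM and Defa20 1.20 and 3.43 CPM. These levels were at or below the background in WT, where Defa21, Defa22 and Gm14851 stood at 0.31, 0.35 and 0.39 of their tuft-like levels, and at 0.98, 1.04 and 1.29 of them in the NFKO-labelled library. With the tuft-like level subtracted, 2 members were at least 2-fold higher and 4 lower. Members at or below the tuft-like level in either library, among them Defa21, Defa22 and Gm14851, then had no ratio and could not be counted. The 2 and 4 are therefore not comparable with the 9 and 1. Nod2 rested on 8 and 33 UMIs.

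Of the 4 most abundant alpha-defensins of goblet-like cells, Defa24, Defa17 and AY761184 were lower in the NFKO-labelled library and Defa30 was higher. Defa24 had 14190 CPM in WT and 9406 CPM in the NFKO-labelled library (0.663), Defa17 570 and 418 CPM (0.734) and AY761184 495 and 273 CPM (0.551). Defa30 had 238 and 435 CPM (1.82), with ratios of 1.94, 1.62 and 0.930 (0.744 to 1.15) in clusters 0, 1 and 2. In male-typed goblet-like cells, 703 in WT and 110 in the NFKO-labelled library, the Defa30 ratio was 0.830 (0.754 to 0.911), in the opposite direction. Within the 3 goblet-like clusters Defa17 was higher, with ratios of 1.14, 2.13 and 1.69, and the ratios of Defa24 were 0.853, 1.22 and 1.68, so that the lower Defa17 level of the whole class was found in none of the 3 clusters and the lower Defa24 level in 1 of them. Defa3, with 41.8 and 21.7 CPM (0.520, 0.469 to 0.577), was among the 3 lowest ratios, beside Itln1 and Pigr. The other 6 alpha-defensins of this class had between 2.77 and 33.1 CPM in WT, and ratios from 0.809 to 1.88. Over the 17 genes the median log2 ratio was 0.72, that of the 14 other members tested was -0.24 and that of all genes tested -0.03.

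Other members of goblet-like cells were further above the background. Lypd8 had 3906 CPM in WT and 5851 CPM in the NFKO-labelled library (1.5), and goblet-like cells held 52.5% and 62.0% of its UMIs. Itln1 had 2990 and 1464 CPM (0.490, 0.484 to 0.496), but its ratios within the 3 goblet-like clusters were 0.825, 0.990 and 2.94, so that no cluster gave a 2-fold lower level. Pigr had 1593 and 841 CPM (0.528, 0.520 to 0.537) and was lower in each of the 3 clusters, with 0.693, 0.351 and 0.825. Mmp7 had 902 and 687 CPM (0.762), Lyz1 645 and 407 CPM (0.630), Nupr1 562 and 647 CPM (1.15) and Pglyrp1 450 and 364 CPM (0.808). Ang had 133 and 184 CPM (1.39), and Mptx2 had 51.7 and 42.9 CPM (0.830), below its tuft-like level of 71.4 CPM in WT. Ang4 had 25.7 and 64.9 CPM, Dmbt1 26.3 and 18.8 CPM (0.716) and Habp2 11.6 and 9.99 CPM (0.864). Lyz2 and Lcn2 had at most 8 UMIs in a library.

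Of 30 members that could be compared in all 3 goblet-like clusters, 12 were higher in the NFKO-labelled library in each of them, 3 were lower in each and 15 went in different directions. Mptx1 and Ang4 were at least 2-fold higher in all 3. The 3 lower ones were Pigr, Dmbt1 and Pglyrp1. Of 9220 genes with at least 20 UMIs in each of these clusters, 18.2% were higher in all 3, 10.4% were lower in all 3 and 0.531% were at least 2-fold higher in all 3. Intervals lay above 1 in all 3 clusters for 6 of the 12 members, Ang4, Defa17, Defa21, Defa22, Mptx1 and Nupr1, and below 1 for Pigr and Pglyrp1, and the 22 NFKO-labelled cells of cluster 2 weigh on each of these counts. In male-typed goblet-like cells the ratios of Defa17 and Nupr1 were 0.888 and 0.859. The ratio of a member over the whole goblet-like class therefore does not stand for its clusters. Values by cluster are not given above for every member. In clusters 0, 1 and 2, AY761184 had ratios of 0.666, 2.68 and 0.203, and Mmp7 had 1.08, 0.805 and 1.56. Defa3 had 0.548, 1.68 and 0.829, with intervals that include 1 in clusters 1 and 2. Lyz1 was lower in the NFKO-labelled library in cluster 0 (0.510) and higher in clusters 1 and 2. The lower class levels of these members were thus not found in every cluster.

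In cluster 7, of 30 members 11 were at least 2-fold lower, where 2.30% of 10428 genes were, and 6 were at least 2-fold higher, where 3.98% were. Itln1 had 14065 CPM in WT and 5593 CPM in the NFKO-labelled library, Lyz1 6089 and 2949 CPM, Mmp7 2973 and 1471 CPM and Mptx2 839 and 283 CPM. The finer clustering placed 102 of 149 WT cells but 81 of 276 NFKO-labelled cells of cluster 7 in the cluster shared with Paneth-like cells, and there the ratios of Lyz1 and Itln1 were 1.45 and 1.01. In cluster 7 Defa21 went the other way, from 95.1 to 992 CPM, and so did Ang4, from 82.3 to 222 CPM. The 9 goblet markers summed to 76078 and 69105 CPM in this cluster, between the sums in Paneth-like and goblet-like cells. In its 130 male-typed WT cells and 17 male-typed NFKO-labelled cells the alpha-defensin sum was 74119 and 71500 CPM, where the 252 female-typed NFKO-labelled cells had 35956 CPM. Mptx1 was higher in the male-typed cells too, with 41.4 and 556 CPM.

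In stem-like cells 6 of 31 members were at least 2-fold lower, where 3.06% of all genes were, and 1, Mptx1, was at least 2-fold higher, where 2.57% were. The 6 were Defa5, Defa23, Defa34, Defa36, Gm15293 and Mptx2. Of 17 alpha-defensins in stem-like cells, 8 in WT and 7 in the NFKO-labelled library lay above their tuft-like level beyond counting error, and 3 and 6 below it. The stem-like cluster passed 8 of 8 cycling markers beside 8 of 8 stem markers, so that its cells are not set apart from dividing cells. The cycling markers summed to 1947 and 1987 CPM there, against 3029 and 3214 CPM in cycling cells. The highest 3 stem-like cells held 32.2% of the alpha-defensin UMIs of their class in WT and 39.2% in the NFKO-labelled library. In cycling cells 14 of 30 members were at least 2-fold higher, where 4.36% were, 12 of them alpha-defensins, and 0 were at least 2-fold lower, where 2.41% were. A few cycling cells weigh on these values, since the highest 3 held 39.4% of the alpha-defensin UMIs in WT and 37.7% in the NFKO-labelled library. The median cycling cell had an alpha-defensin share of 0.161% in WT and 0.123% in the NFKO-labelled library, in the opposite order to the sums. In cycling cells of the NFKO-labelled library 10 of 17 alpha-defensins lay above their tuft-like level beyond counting error, and in those of WT 2 of 13 did and 9 lay below it. In tuft-like cells 6 of 26 members were at least 2-fold higher, where 6.79% were, and 2 were lower, where 6.31% were.

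Several members had higher levels in enterocyte-like and stem-like cells than in Paneth-like cells. Dmbt1 had 2305 and 1286 CPM in enterocyte-like cells and 1642 and 1471 CPM in stem-like cells, and stem-like cells held 59.8% and 56.4% of its UMIs. Pigr had 2689 and 1490 CPM in enterocyte-like cells and 1865 and 1152 CPM in stem-like cells, and its level was lower in the NFKO-labelled library in Paneth-like, goblet-like, stem-like, cycling, enterocyte-like and tuft-like cells and in cluster 7. Lypd8 had 4204 and 4550 CPM in enterocyte-like cells, near its goblet-like level in WT. Lcn2 had 28.6 and 4.72 CPM in enterocyte-like cells and 12.4 and 11.8 CPM in stem-like cells. It was the 1 member at least 2-fold lower in enterocyte-like cells, where 3.91% of genes were. The marker sums of enterocyte-like cells differed between the libraries, as given above, and this bears on each comparison in that class. Nod2 stayed at or below 1.42 CPM in each class.

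Genes of the same system that are no members were counted from 4 lists. Of 51 other defensin genes, 6 had enough UMIs in Paneth-like cells. Among them 1, Defb1, an epithelial beta-defensin, was at least 2-fold higher in the NFKO-labelled library (2.62), where 6.01% of all genes were. In goblet-like cells 5 of 6 were, where 5.64% of all genes were, at levels of 0.0523 to 1.62 CPM in WT and 0.549 to 4.78 CPM in the NFKO-labelled library. Of these, Defb1 rested on 1 and 26 UMIs, and Defb37 on 5 and 17 UMIs with an interval of 0.744 to 7.28. Of 19 mucosal antimicrobial genes found in the files, 11 had enough UMIs in Paneth-like cells. Among them 1, Zg16, was at least 2-fold higher, where 6.01% of all genes were. In goblet-like cells Zg16 and Nos2, which makes nitric oxide (4.32), were at least 2-fold higher of 12, where 5.64% of all genes were. Reg3b, a lectin that kills bacteria, had 23415 CPM in goblet-like cells of WT and 18104 CPM in those labelled NFKO, and Reg3g, its relative, had 14641 and 8780 CPM.

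Of 14 microbial sensors and adaptors, 6 had enough UMIs in Paneth-like cells and 7 in goblet-like cells, and none of these was past 2-fold in either class. All 13 regulators of Paneth fate and granules had enough UMIs in both classes. None of them was past 2-fold in Paneth-like cells, where Atoh1, the factor of all secretory cells, had a ratio of 1.75, Wnt3, a Wnt ligand that Paneth cells make, 1.47 and Sox9, a factor that Paneth cells need, 0.772. In goblet-like cells Kcnn4, a potassium channel of granule secretion, was at least 2-fold higher (2.47), where 5.64% of all genes were. Sox9 was at least 2-fold lower there (0.477), where 2.71% of all genes were. Ratios of the listed genes were not taken within the 3 goblet-like clusters, which drew unequally on the libraries. The median log2 ratios of the other defensins, the mucosal antimicrobial genes, the sensors and the regulators were 0.68, -0.04, -0.05 and 0.13 in Paneth-like cells, beside 0.21 for all genes tested there. In goblet-like cells they were 1.53, -0.28, -0.25 and 0.21, beside -0.03 for all genes.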

How the data were processed

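Tomato-positive epithelial cells were profiled with the 10x Genomics 3′ kit, 1 library per group. The deposited files hold raw UMI counts per gene and barcode, which the authors made with Cell Ranger 5.0.1 on mm10; the submitters' processing notes and file headers name both. There were 5051 barcodes with 90002878 UMIs in the WT file, and 7540 with 124300388 in the file labelled NFKO.

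A barcode was kept from 500 genes and 1000 UMIs up, unless mitochondrial genes exceeded 25% of its UMIs; 38.1% and 25.3% were dropped. Scrublet (scanpy 1.11.5) set its automatic threshold so that 3 and 0 cells were marked, and the highest scores were removed in its place at 0.8% per 1000 barcodes, 126 and 340 cells. The libraries were merged and clustered in Seurat 5.3.0 (R 4.3.3) with no integration step (2000 variable genes, 30 principal components, 20 neighbours, resolution 0.8, seed 42), with 53 genes left out (the members, other alpha-defensins, Foxo1 and sex-linked genes). A cluster was named when at least 3 markers of a class, and more than 33.3% of its list, were at least 2-fold higher than elsewhere and found in at least 10% of its cells. Cycling gave way to any other class that qualified. A cluster of low depth with no marker of its class among its leading genes was left unnamed. Cluster 15, which passed 6 of 9 enteroendocrine markers, was kept apart from the enteroendocrine-like class. The 33.3% limit was set after the data were seen, and it keeps cluster 7, which made up 4.96% and 5.22% of the kept cells, out of the Paneth-like class. Enteroendocrine-like cells were not compared by ratio, because a stromal marker was among the leading genes of 1 of their clusters.

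For each class, counts were added up per library and divided by the total of that class. The 95% intervals are exact Poisson for sums, Clopper-Pearson for shares and conditional binomial for ratios (scipy 1.17.1). Ratios needed at least 20 UMIs over both libraries, and a gene was counted as higher or lower from 2-fold. A member was described singly from 50 CPM in a class of at least 50 cells, and the 3 highest and 3 lowest ratios in Paneth-like and goblet-like cells were named. To compare shares of cells, each cell was thinned to 2000 UMIs. The scripts were tested on simulated counts. The members, the 4 lists of other genes and the marker lists were chosen with earlier results of these data known. Positions are from GENCODE M21 and promoters from RefSeq, both on GRCm38. The alternatives tried were the members kept among the clustering genes, resolution 1.6, another seed, a stricter and no filter on barcodes, doublets kept, male-typed cells only, other scalings, equal weight of cells, a subtracted background and no count minimum.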

Additional observations from a re-analysis of the deposited data

How the results depend on the processing

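The alpha-defensin sum of Paneth-like cells kept a ratio below 1 in each alternative run: 0.947 with the members among the clustering genes, 0.954 at resolution 1.6, 0.960 with a stricter filter and also with doublets kept, 0.962 with every barcode, 0.898 in male-typed cells, 0.838 with size factors, 0.848 with the members taken out of the total and 0.996 with equal weight of cells. In the same order, the sum of the other members in Paneth-like cells, 0.894 in the report's setting, was 0.874, 0.886, 0.885 with the stricter filter, 0.889 with doublets kept, 0.891 with every barcode, 1.25 in male-typed cells, 0.775, 0.785 and 0.904, and it was 0.891 with the tuft-like level subtracted. It changed direction in male-typed cells, of which the Paneth-like class held 150 in WT and 4 in the other library. In those cells 5 members were at least 2-fold higher, where 13.9% of 9159 genes were, and 8 lower, where 30.2% were. Lower members numbered 4 with size factors and with the members out of the total, and 1 with equal weight, settings in which the share of all genes was not counted.

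In goblet-like cells the alpha-defensin sum had ratios of 0.624 at resolution 1.6, 0.680 with the stricter filter, 0.694 with every barcode, 0.713 with doublets kept, 0.859 in male-typed cells, 0.717 with size factors, 0.835 with equal weight and 0.641 with the tuft-like level subtracted. The sum of the other members, 1.20, was 1.22 with the members among the clustering genes, and at resolution 1.6, 1.23 with size factors, 1.215 with the tuft-like level subtracted, 1.198 with the stricter filter, 1.16 with every barcode, 1.36 in male-typed cells and 1.12 with equal weight. Higher members numbered 3 and lower ones 3 in male-typed cells, where 3.39% and 7.35% of all genes were. They numbered 2 and 4 with the tuft-like level subtracted, where members at or below that level had no ratio and were not counted. Lower members numbered 2 at resolution 1.6, with equal weight and without a count minimum, and 0 with every barcode and with doublets kept. Among the alternatives of this section, the share of all genes past 2-fold was counted in male-typed cells only. The Nod2 ratio turned to 0.429 with the tuft-like level subtracted. The cause of these shifts was not tested.

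Paneth-like cells held 96.4% and 93.8% of the alpha-defensin UMIs with the members among the clustering genes, 96.1% and 92.4% at resolution 1.6, 93.8% and 90.4% with the stricter filter, 93.6% and 90.6% with every barcode, 91.4% and 88.6% with doublets kept, and 93.2% and 67.3% in male-typed cells. A further pair of alternatives was chosen after seeing the data. With cluster 7 counted as Paneth-like, the alpha-defensin sum had a ratio of 0.755, the other members 0.716, 2 members were higher, and the shares were 96.1% and 92.5%. Without goblet-like cells above 10% alpha-defensin UMIs the ratios were 0.810 and 1.25, and 0 members were lower. The Mptx1 ratio stayed between 19.1 and 61.7 in Paneth-like cells and between 44.5 and 65.4 in goblet-like cells. Another seed gave the same values within the intervals.

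No paired analysis was possible because each group has 1 library. Pooled mice, sex and label cannot be separated, and the intervals do not cover differences between mice, sorts or libraries. Depth limits Nod2, Lcn2 and Lyz2, which had few UMIs, and near-identical 3′ ends limit the single alpha-defensin genes.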
